A study of Mus musculus with 6 samples.

Results

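Described here are 50 genes grouped under DNA replication, among them genes of S phase entry, nucleotide supply and chromatin replication. They were measured in regulatory T cells (Tregs) of mice with and without DJ-1, the protein encoded by Park7. The genes were taken by name, and every probe set annotated with exactly 1 of the 50 symbols was used, which gave 837 of the array's 269751 probe sets and 50 of its 23152 singly named genes. The KO group held 3 male DJ-1-/- mice and the WT group 3 male DJ-1+/+ littermates, all 45 weeks old, untreated and kept free of specific pathogens. Tregs were sorted from each spleen as CD4+ cells with high CD25, and the RNA of each mouse went on 1 Affymetrix Mouse Gene 2.0 ST array without technical repeats. The labels name no promoter, Cre or cell type that limits the deletion, and the gate rests on CD25, which activated conventional T cells can also carry.

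Replication starts where the origin recognition complex (the Orc proteins) sits on DNA. Cdc6 and Cdt1 load the ring-shaped Mcm2 to Mcm7 helicase there, and Cdc45 and the GINS complex switch it on. Polymerases then extend primers behind the fork, held by the sliding clamp PCNA. Resting T cells keep many of these genes low, and E2F transcription factors induce them when a cell enters the cycle, so their transcripts are commonly read as a sign of proliferating cells in a sample. The arrays measured bulk RNA, and fewer cycling cells and less of these RNAs per cell cannot be told apart.

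Values are log2(intensity + 16), where a gene's value is the median of its exon-level probe sets, and a difference is KO minus WT. A gene was tested when its mean value reached the 40th percentile of all genes (5.90), which left 13891 genes. Park7 itself read 6.06, 5.96 and 5.71 in KO replicates 1 to 3, against 9.48, 9.27 and 9.70 in WT replicates 1 to 3 (-3.57, SE 0.16, limma adjusted p = 2.06e-05). The Treg label was borne out by Foxp3, which read 12.75, 12.69 and 12.73 in KO replicates 1 to 3, and 12.67, 12.68 and 12.64 in WT replicates 1 to 3, among the brightest genes named here (limma adjusted p = 0.886). KO replicate 1 stood apart. Its median intensity was 88.6, against 95.3 to 100.2 on the other arrays, and its mean correlation with them was 0.951, against 0.957 to 0.964. For the members the value without that array is given wherever it changed sign, and also for many members and gene lists whose value moved. No member lay within 10 Mb of Park7, although 5 share its chromosome 4.

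Most of the replication genes were lower in KO Tregs, by a small amount that did not pass the test for any single gene. Of the 50 members 48 were tested, and 41 of the 48 (85.4%) had a negative difference, where 59.7% of all tested genes did. Their median difference was -0.20, against -0.05 over all tested genes. None of the 48 passed an adjusted p of 0.05 in limma, where 0.274% of all genes did (0.266% with KO lower), and the smallest adjusted p among them was 0.209. At an unadjusted p of 0.05, 12 members were lower and 0 were higher. That is 25% of the members for the lower direction, where 7.67% of all tested genes were lower and 2.99% higher. In 14 members (29.2%) every KO array lay below every WT array, where 11.3% of all tested genes showed this, and in 2 members every KO array lay above, where 6.10% of all genes did. The 12 members lower at an unadjusted p of 0.05 were Orc6, Cdc6, Mcm3, Mcm6, Mcm7, Gins1, Rfc2, Rfc3, Rfc4, Pole, Rrm1 and Tk1. Of these Cdc6 and Gins1 had KO means under the filter floor and passed the filter only through WT. Among the 46 members whose KO and WT means both reached the floor, 10 (21.7%) were lower at that p and 12 (26.1%) were free of overlap with KO lower, where 7.47% and 11.1% of the 13320 genes treated alike were. That restriction was added after the results were seen, and it also drops genes that are low in KO.

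These counts rested partly on single arrays. Without KO replicate 1, 36 of 48 members had a negative difference, where 7185 of 13891 tested genes did. The median was then -0.13, against -0.01 over all genes. Of the 12 members 8 remained lower at an unadjusted p of 0.05, where 6.72% of all genes were lower. In that fit 1 member was higher at the same p, Orc4. Leaving out KO replicate 2 gave 11 members lower at that p, leaving out KO replicate 3 gave 9 and leaving out WT replicate 1 gave 14, where 9.87%, 7.54% and 6.49% of all genes were lower. The fit lacking WT replicate 2 gave 7 and that lacking WT replicate 3 gave 6, where 4.37% and 6.03% of all genes were. The 14 members free of overlap became 27 when WT replicate 1 was left out and 21 when KO replicate 2 was, where 19.8% and 19.9% of all genes had no overlap with KO lower. Each of the other arrays left out gave 15 to 16, where 14.5% to 16.6% of all genes did. When a gene's value was the mean rather than the median of its probe sets, 15 members were lower at an unadjusted p of 0.05, 8 of them among the 12, where 8.59% of all genes were.

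**Figure D1:**
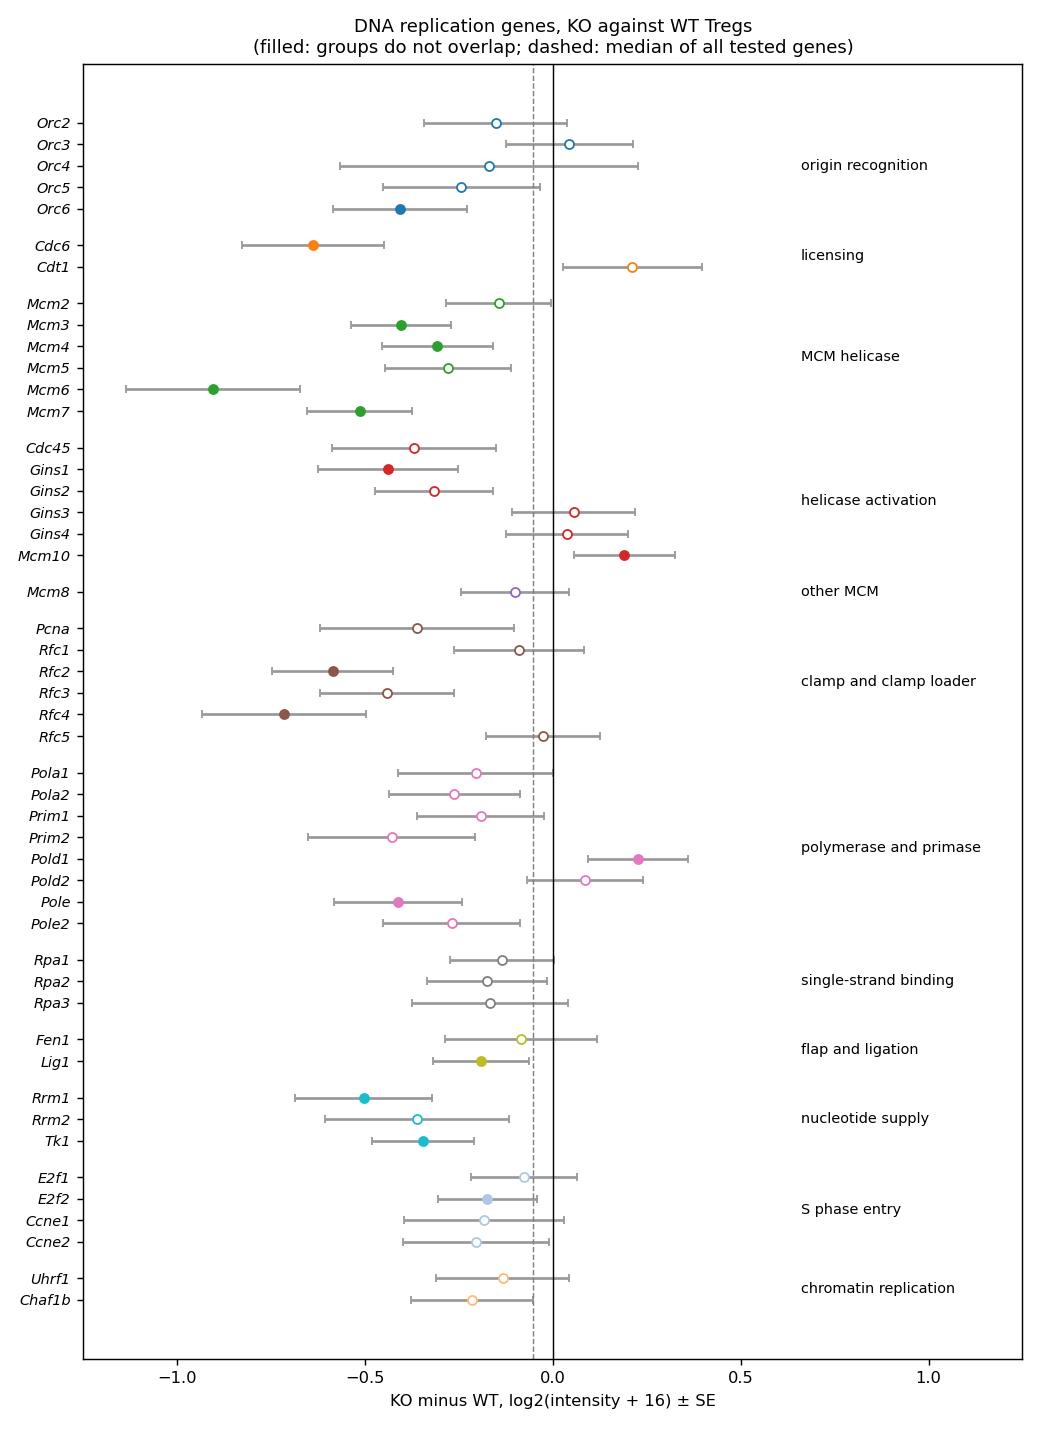
Difference between KO and WT (KO minus WT, log2(intensity + 16), bars show the SE, 3 arrays per group) for the 48 tested members, grouped by role; filled points mark members whose groups do not overlap, and the dashed line is the median of all tested genes. All 6 subunits of the MCM helicase lie left of 0, and Mcm6 lies farthest left at -0.90.

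**Figure D2:**
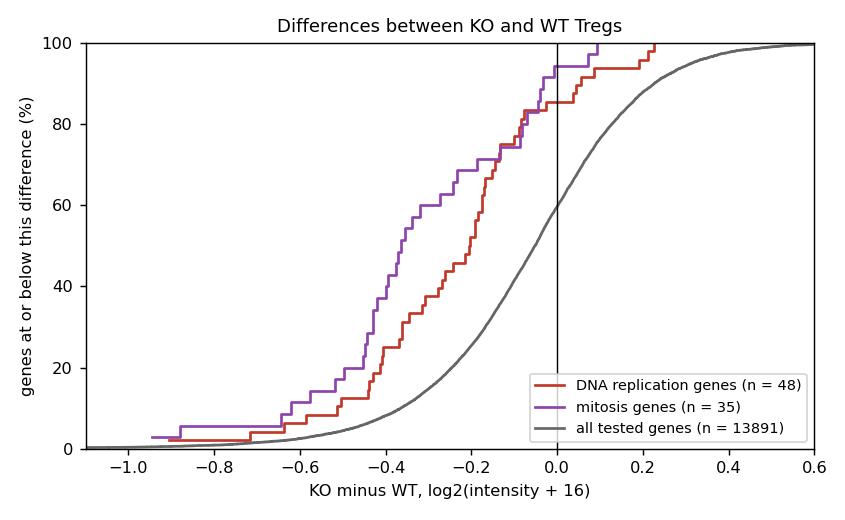
Cumulative share of genes (vertical axis, %) at or below a given KO minus WT difference (horizontal axis, log2(intensity + 16)) for the 48 tested replication genes, 35 tested mitosis genes and all 13891 tested genes. The curves of the replication and mitosis genes lie left of that of all genes over most of the range, with 85.4% of replication genes below 0.

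The 6 arrays did not split cleanly by genotype over the members. For each gene the 6 values were set against their mean, and the median of these deviations over the 48 members was -0.24, 0.03 and -0.09 in KO replicates 1 to 3, against -0.05, 0.14 and 0.23 in WT replicates 1 to 3. KO replicate 2 thus lay above WT replicate 1, and the groups overlapped by this measure. Over all tested genes the medians were -0.09, 0.03 and 0.01 in KO replicates 1 to 3, against -0.01, 0.06 and 0.06 in WT replicates 1 to 3. KO replicate 1 was the lowest of the 6 arrays in 27 of 48 members (56.2%), where it was lowest in 38.2% of all tested genes, and WT replicate 3 was the highest in 24 members. KO replicate 1 lay below all WT arrays in 34 members, KO replicate 2 in 19 and KO replicate 3 in 25. Over all tested genes those shares were 46.3%, 26.7% and 29.7%, and among the members 70.8%, 39.6% and 52.1%.

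**Figure D3:**
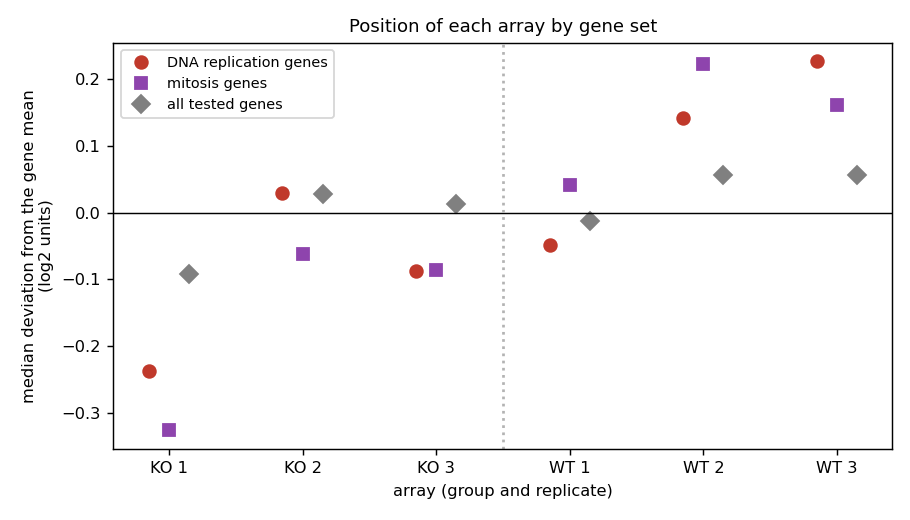
Median deviation of each array from the gene mean over the 6 arrays (vertical axis, log2 units) for replication genes, mitosis genes and all tested genes, with the 3 KO arrays left of the 3 WT arrays. Among replication genes KO replicate 1 lies lowest (-0.24) and WT replicate 3 highest (0.23), whereas all genes stay within -0.09 and 0.06.

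All 6 subunits of the MCM helicase were lower in KO, with a median of -0.36 and the same sign under every alternative processing tried, and in 4 of them the groups did not overlap. Mcm6 read 8.50, 9.52 and 9.04 in KO replicates 1 to 3, against 9.84, 9.86 and 10.07 in WT replicates 1 to 3. The WT values lay close together and the KO values spread over a whole unit, with the lowest in KO replicate 1. The difference was -0.90 (SE 0.23, limma adjusted p = 0.209), and -0.64 without KO replicate 1. Mcm7 read 8.58, 8.72 and 8.79 in KO replicates 1 to 3, against 9.16, 9.11 and 9.36 in WT replicates 1 to 3. Here the 2 groups were each tight and clearly separated (-0.51, SE 0.14, limma adjusted p = 0.237). Mcm3 read 7.42, 7.63 and 7.50 in KO replicates 1 to 3, against 7.88, 8.01 and 7.88 in WT replicates 1 to 3 (-0.41, SE 0.13, limma adjusted p = 0.313). Mcm4 read 9.73, 10.10 and 10.02 in KO replicates 1 to 3, against 10.23, 10.35 and 10.20 in WT replicates 1 to 3, a narrower gap (-0.31, and -0.20 without KO replicate 1, limma adjusted p = 0.509). Mcm5 (-0.28) and Mcm2 (-0.14) had overlapping groups.

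**Figure D4:**
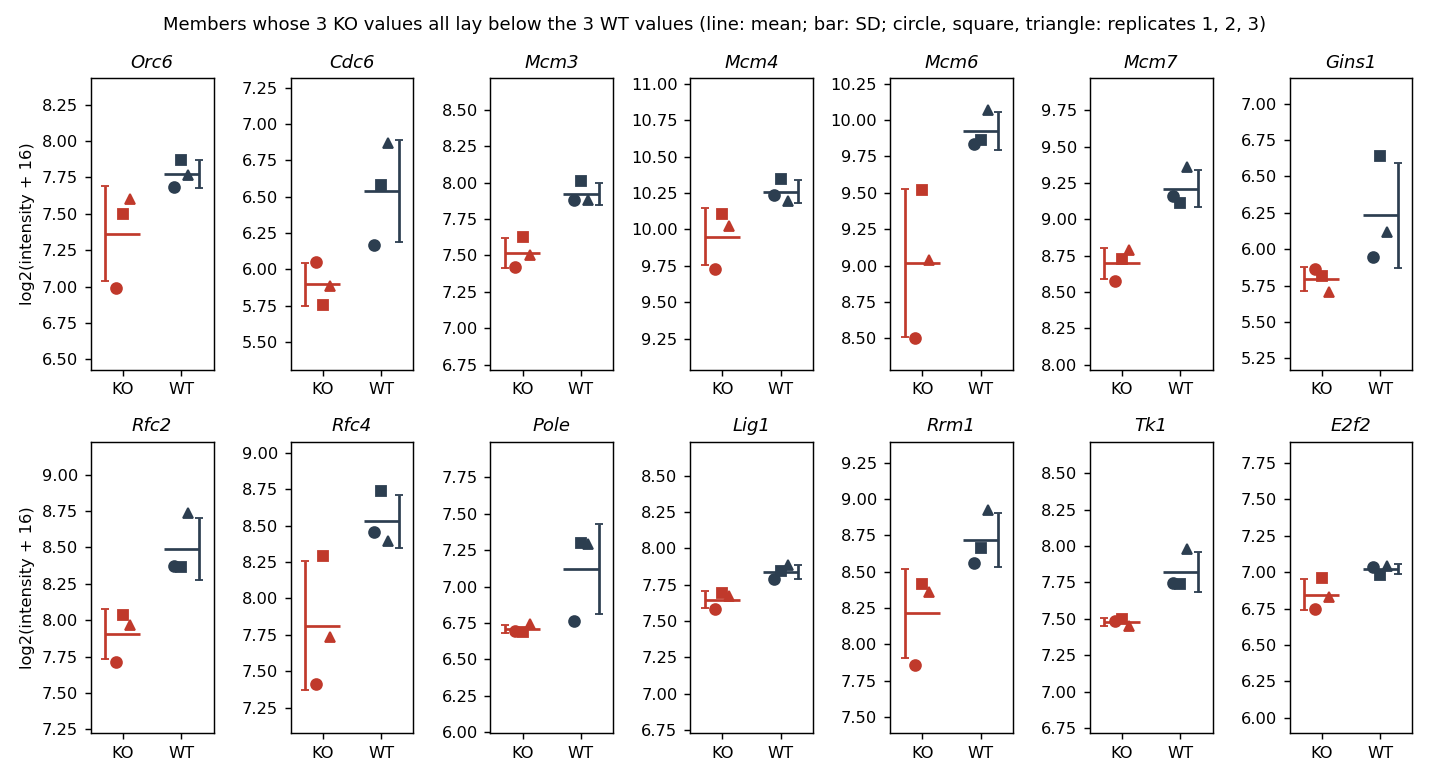
Values in every array (log2(intensity + 16), each panel spanning the same number of units) of the 14 members whose 3 KO values all lay below the 3 WT values, KO left and WT right, with the mean as a line and the SD as a bar. The Mcm6 values spread from 8.50 to 9.52 in KO and from 9.84 to 10.07 in WT.

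The array holds several exon-level probe sets per gene, whose place in the transcript was not used here. For Mcm6 all 20 probe sets were lower in KO, from -1.22 to -0.26, and 18 of the 20 had no overlap between groups, where 7.95% of all singly named probe sets did with KO lower. None passed when all 269751 probe sets were tested (smallest limma adjusted p for Mcm6 0.425), and over the whole array 0.00111% passed. Probe sets of 1 gene share their RNA and are not replicates. Mcm7 was less even. Of its 23 probe sets 18 were lower and 6 had KO below WT without overlap, while 1 had KO above WT, and the median over probe sets was -0.20. Probe set 17454243 of Mcm7 read 7.31, 7.24 and 7.36 in KO replicates 1 to 3, against 9.81, 8.28 and 9.62 in WT replicates 1 to 3 (-1.93). The next lowest Mcm7 probe set differed by -0.55, so this probe set stood well apart from the others. With the mean of probe sets in place of the median Mcm7 differed by -0.25 and Mcm6 by -0.73. Over all 837 member probe sets 72.8% were lower in KO, where 53.7% of all singly named probe sets were, and 19.6% had KO below WT without overlap. In the other direction 3.11% had KO above WT, where 6.03% of all singly named probe sets did.

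**Figure D5:**
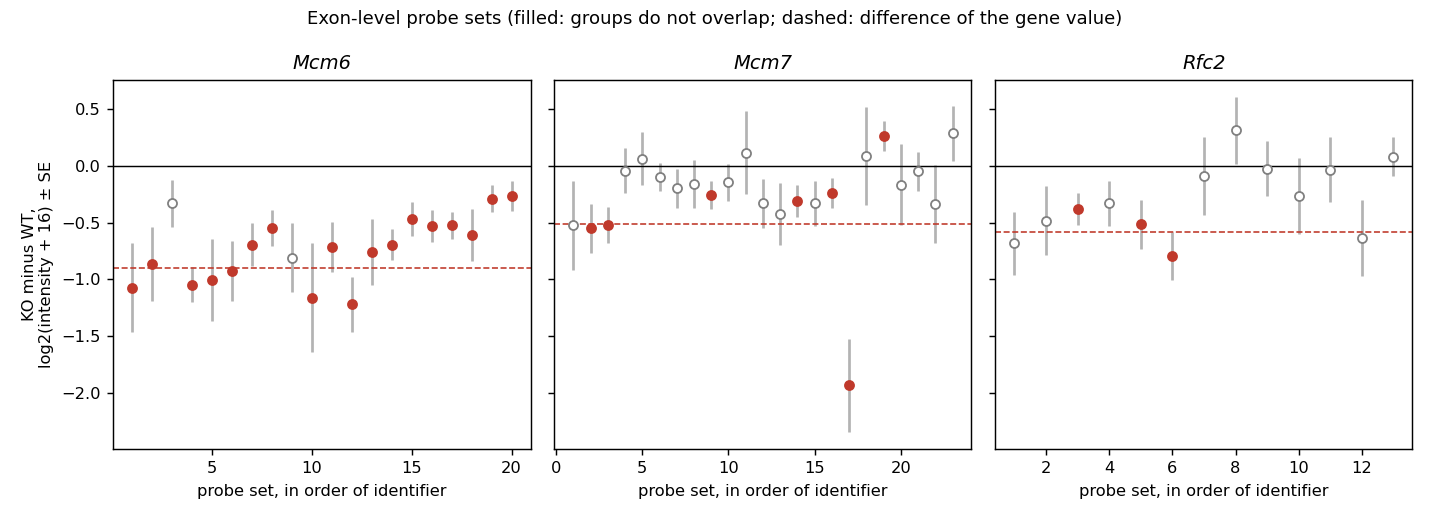
KO minus WT difference (vertical axis, log2(intensity + 16), bars show the SE) of each exon-level probe set of Mcm6, Mcm7 and Rfc2, in order of identifier; filled points mark probe sets whose groups do not overlap, and the dashed line is the difference of the gene value. Every Mcm6 point lies below 0, whereas Mcm7 has 1 point at -1.93 and several near 0.

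The 2 licensing factors differed in sign. Cdc6, the ATPase that recruits the helicase to the origin, read 6.05, 5.76 and 5.89 in KO replicates 1 to 3, against 6.17, 6.58 and 6.87 in WT replicates 1 to 3 (-0.64, SE 0.19, limma adjusted p = 0.275). Its KO mean of 5.90 lay at the filter floor, so the size of the difference is uncertain. The KO values were all below the WT values, and the difference was -0.71 without KO replicate 1. Cdt1, the partner of Cdc6 in loading, was not lower. Its groups overlapped, with 9.19, 9.01 and 8.86 in KO replicates 1 to 3, against 8.46, 9.11 and 8.86 in WT replicates 1 to 3 (0.21, and 0.13 without KO replicate 1, limma adjusted p = 0.719). Cdt1 is held back largely through the protein, by geminin and by degradation in S phase, which arrays do not measure.

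The helicase genes and Cdc6 are textbook E2F targets, and the available promoters of all members were searched for the E2F motif. Promoters were taken from RefSeq (GRCm38.p6) as 250 bases before to 50 bases after each annotated start, and 42 of the 50 members matched by symbol, 8 of them with more than 1 window. The motif was searched on both strands as TTTCCCGC, TTTGGCGC, TTTCGCGC or TTTGCCGC, and a match on the other strand is read as its reverse complement. At least 1 match was found in 17 of 42 members (40.5%), where 4.39% of the 9744 tested genes with a promoter had a match. Counted by window, 17 of 52 member windows (32.7%) held a match, where 2.26% of all 32851 windows did. Among the 10 members with KO below WT without overlap and a promoter in the table, 6 (60%) had a match, and among the other 30 tested members 10 (33.3%) did. Of the helicase genes Mcm4 had no promoter window, and the window of Mcm2 held no match. A split by the motif gave similar differences. The 16 tested members with a match had a median of -0.20, with 12 lower, and the 24 without one had a median of -0.18, with 22 lower. The CCAAT box (CCAAT, both strands), which binds NF-Y, was found in 27 of 42 members (64.3%), where 42.2% of tested genes had it. It was in 6 of the 10 members with KO below WT without overlap (60%) and in 19 of the other 30 (63.3%). A further motif searched, CHR (TTTGAA, both strands), was found in 6 of 42 members (14.3%), where 14.4% of tested genes had it.

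The promoters of the 4 members with the smallest p that had both a match and no overlap are shown first, followed by those of 2 members whose gene values hardly differed between the groups. These 2 are Rfc5 and Orc3, and 7 of the 14 Rfc5 probe sets still had KO below WT without overlap. Each promoter reads from the distal end to base 50 of the transcript, and capitals mark the E2F motif.
Mcm6 promoter, chr1:128359656-128359955, minus strand: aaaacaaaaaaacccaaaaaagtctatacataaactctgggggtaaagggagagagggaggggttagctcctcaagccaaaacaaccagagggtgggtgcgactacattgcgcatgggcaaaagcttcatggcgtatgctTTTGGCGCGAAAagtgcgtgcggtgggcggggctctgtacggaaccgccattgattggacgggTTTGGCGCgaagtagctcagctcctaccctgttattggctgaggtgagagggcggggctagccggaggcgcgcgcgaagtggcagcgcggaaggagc
Mcm7 promoter, chr5:138171834-138172133, minus strand: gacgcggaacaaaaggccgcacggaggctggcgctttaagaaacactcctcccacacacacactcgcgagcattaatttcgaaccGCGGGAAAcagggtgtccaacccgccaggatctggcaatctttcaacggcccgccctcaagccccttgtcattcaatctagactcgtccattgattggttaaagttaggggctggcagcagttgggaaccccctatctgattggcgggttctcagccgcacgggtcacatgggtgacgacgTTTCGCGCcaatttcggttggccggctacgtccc
Cdc6 promoter, chr11:98907901-98908200, plus strand: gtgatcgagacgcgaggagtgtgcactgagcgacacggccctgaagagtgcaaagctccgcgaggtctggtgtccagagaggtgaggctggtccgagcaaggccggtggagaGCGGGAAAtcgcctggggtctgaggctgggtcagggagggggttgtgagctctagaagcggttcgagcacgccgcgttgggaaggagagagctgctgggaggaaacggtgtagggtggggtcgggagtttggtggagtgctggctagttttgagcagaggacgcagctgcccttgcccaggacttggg
Mcm3 promoter, chr1:20820263-20820562, minus strand: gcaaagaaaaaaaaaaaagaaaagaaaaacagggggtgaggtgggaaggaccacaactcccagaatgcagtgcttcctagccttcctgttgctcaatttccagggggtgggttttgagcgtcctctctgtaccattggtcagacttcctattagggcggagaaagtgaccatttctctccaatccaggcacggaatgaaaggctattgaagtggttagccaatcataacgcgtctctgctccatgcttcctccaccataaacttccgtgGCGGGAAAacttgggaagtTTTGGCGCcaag
Rfc5 promoter, chr5:117388974-117389273, minus strand: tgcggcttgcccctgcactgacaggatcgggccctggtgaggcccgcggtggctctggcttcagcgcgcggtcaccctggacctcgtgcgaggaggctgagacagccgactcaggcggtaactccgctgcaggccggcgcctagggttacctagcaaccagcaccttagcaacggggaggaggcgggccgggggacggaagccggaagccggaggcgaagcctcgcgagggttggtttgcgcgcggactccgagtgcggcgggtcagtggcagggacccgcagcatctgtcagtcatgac
Orc3 promoter, chr4:34614893-34615192, minus strand: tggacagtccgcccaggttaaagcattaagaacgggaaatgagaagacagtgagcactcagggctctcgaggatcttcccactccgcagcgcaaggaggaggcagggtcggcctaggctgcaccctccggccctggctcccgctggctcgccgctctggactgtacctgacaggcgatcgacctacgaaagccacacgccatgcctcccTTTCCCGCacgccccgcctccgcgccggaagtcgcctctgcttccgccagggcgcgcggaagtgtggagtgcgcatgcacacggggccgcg
In Mcm6 the first 2 matches overlap each other, beginning 110 and 106 bases before the start, and another begins 47 bases before it. Mcm7 has 2 windows, and the window shown was chosen because it holds a match. It has a match 165 bases before the start and another 17 bases after it. A single match in Cdc6 begins 138 bases before the start, and those in Mcm3 begin 20 and 39 bases after it. Rfc5 has no match in this window, and Orc3 has one that begins 41 bases before the start, although Orc3 differed by only 0.04. A match in these letters is a description of the sequence and not a bound site.

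Genes that turn the loaded helicase into a moving fork were mixed. Gins1, a GINS subunit, read 5.86, 5.81 and 5.71 in KO replicates 1 to 3, against 5.95, 6.64 and 6.12 in WT replicates 1 to 3 (-0.44, limma adjusted p = 0.444). All 3 KO values lay under the filter floor, so Gins1 was tested only through its WT values and the size is uncertain. Gins2 (-0.32) and Cdc45 (-0.37) were also lower, with overlapping groups, and Cdc45 differed by -0.24 without KO replicate 1. The other GINS subunits, Gins3 (0.05) and Gins4 (0.04), had small differences of the other sign, and Gins4 was at -0.06 without KO replicate 1, so the 4 subunits of this complex did not share a direction. Mcm10, which helps to activate the helicase, read 6.34, 6.45 and 6.34 in KO replicates 1 to 3, against 6.32, 6.11 and 6.14 in WT replicates 1 to 3. It was thus 1 of the 2 members with KO above WT (0.19, limma adjusted p = 0.652), but 17 of its 23 probe sets were lower and it differed by -0.16 with the mean of probe sets. Mcm8, which acts in recombination rather than in the replicative ring, read 6.05, 6.33 and 6.21 in KO replicates 1 to 3, against 6.15, 6.36 and 6.38 in WT replicates 1 to 3 (-0.10, and -0.03 without KO replicate 1).

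In the origin recognition complex 4 of 5 tested subunits were lower, with a median of -0.17, and without KO replicate 1 the median was 0.01 with 2 of 5 lower. Orc6 read 6.99, 7.50 and 7.60 in KO replicates 1 to 3, against 7.68, 7.87 and 7.76 in WT replicates 1 to 3 (-0.41, SE 0.18, limma adjusted p = 0.453). The highest KO array lay just under the lowest WT array, and without KO replicate 1 the difference was -0.22. Orc4 turned sign with that array. It read 7.63, 9.29 and 9.45 in KO replicates 1 to 3, against 8.96, 8.94 and 8.97 in WT replicates 1 to 3. Its difference was -0.17 with all arrays and 0.41 without KO replicate 1. Orc2 (-0.15), Orc5 (-0.24) and Orc3 (0.04) had overlapping groups, and without KO replicate 1 they differed by 0.01, -0.01 and 0.22. Orc1, the subunit whose level follows the cell cycle, was below the filter and not tested. It read 5.46, 5.88 and 5.02 in KO replicates 1 to 3, against 5.85, 5.48 and 5.93 in WT replicates 1 to 3, with overlap.

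The clamp and its loader had a median of -0.40, and -0.20 without KO replicate 1. Of the loader, 3 of the 5 subunits of replication factor C, which opens the PCNA ring and places it on DNA, were lower at an unadjusted p of 0.05. Rfc4 read 7.41, 8.29 and 7.74 in KO replicates 1 to 3, against 8.46, 8.74 and 8.39 in WT replicates 1 to 3 (-0.72, SE 0.22, limma adjusted p = 0.281). Without KO replicate 1 Rfc4 differed by -0.52. Rfc2 read 7.71, 8.04 and 7.96 in KO replicates 1 to 3, against 8.37, 8.37 and 8.74 in WT replicates 1 to 3 (-0.59, SE 0.16, limma adjusted p = 0.241). Both had separate groups, but with the mean of probe sets they differed by -0.43 and -0.29, and 11 of 13 Rfc2 probe sets were lower with 3 free of overlap. Rfc3 read 6.98, 7.45 and 6.82 in KO replicates 1 to 3, against 7.50, 7.62 and 7.45 in WT replicates 1 to 3 (-0.44, limma adjusted p = 0.419). KO replicate 2 met WT replicate 3 there, so the groups overlapped. The large subunit Rfc1 (-0.09) and Rfc5 (-0.03) had small differences by the gene value. With that array left out Rfc1 was at -0.0040 and Rfc5 at 0.02. For Rfc5 the sign turned with quantile normalization (0.03) and with median centring (0.01), although 7 of its 14 probe sets had KO below WT without overlap. Pcna read 10.36, 11.26 and 11.51 in KO replicates 1 to 3, against 11.35, 11.44 and 11.43 in WT replicates 1 to 3. KO replicate 1 stood well below the other 5 arrays, and the difference of -0.36 was -0.02 without it.

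Of the 8 polymerase and primase members 6 were lower, with a median of -0.23, and of -0.10 without KO replicate 1. Pole, the catalytic subunit of the leading-strand polymerase epsilon, read 6.70, 6.69 and 6.74 in KO replicates 1 to 3, against 6.77, 7.30 and 7.29 in WT replicates 1 to 3 (-0.41, SE 0.17, limma adjusted p = 0.427). The KO values were nearly equal, and WT replicate 1 lay close to them. Its partner Pole2 differed by -0.27 with overlap, and by -0.08 without KO replicate 1. The catalytic subunit of polymerase delta, which copies the lagging strand, is Pold1. It read 8.62, 8.74 and 8.61 in KO replicates 1 to 3, against 8.32, 8.47 and 8.51 in WT replicates 1 to 3, the other member with KO above WT (0.23, limma adjusted p = 0.591). The difference of Pold1 was 0.07 with the mean of probe sets, and Pold2 differed by 0.09 with overlap (-0.04 without KO replicate 1). Of the delta subunits outside the 50 members, Pold3 was at -0.19 with overlap and Pold4 at -0.20 with every KO value below every WT value (limma adjusted p = 0.636). For epsilon Pole3 was at 0.04 and Pole4 at -0.0054, both with overlap. Without KO replicate 1 Pole3 was at 0.19 and Pole4 at 0.35. The 4 subunits of the primase and polymerase alpha complex, which lays down primers, were lower with overlapping groups, Pola1 (-0.21), Pola2 (-0.26), Prim1 (-0.19) and Prim2 (-0.43). In the fit lacking KO replicate 1 Pola1 was at 0.02, Pola2 at -0.32, Prim1 at -0.12 and Prim2 at -0.18.

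For the genes acting on single strands and nicks the differences were small. Rpa2, a subunit of the protein that coats single-stranded DNA, read 8.18, 8.14 and 8.02 in KO replicates 1 to 3, against 8.01, 8.36 and 8.51 in WT replicates 1 to 3 (-0.18), and Rpa1 (-0.14) and Rpa3 (-0.17) also overlapped. Leaving out KO replicate 1 put Rpa1 at -0.21 and Rpa3 at 0.06. The ligase Lig1, which seals the joined fragments of the lagging strand, had 7.58, 7.69 and 7.67 in KO replicates 1 to 3, against 7.79, 7.84 and 7.88 in WT replicates 1 to 3. The groups were narrow and separate, yet the difference was only -0.19 (limma adjusted p = 0.636). Fen1, the nuclease that trims the flaps before ligation, differed by -0.09 with overlap, and by 0.12 without KO replicate 1.

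All 3 genes of deoxynucleotide supply were lower in KO. Rrm1, the large subunit of ribonucleotide reductase, read 7.86, 8.42 and 8.36 in KO replicates 1 to 3, against 8.56, 8.66 and 8.92 in WT replicates 1 to 3 (-0.50, SE 0.18, limma adjusted p = 0.362), and it differed by -0.33 without KO replicate 1. Its partner Rrm2, the subunit whose level is tied to S phase, read 6.44, 6.78 and 6.80 in KO replicates 1 to 3, against 6.42, 7.32 and 7.36 in WT replicates 1 to 3 (-0.36, limma adjusted p = 0.641). WT replicate 1 had the lowest Rrm2 value of all, so these groups overlapped. Without KO replicate 1 Rrm2 differed by -0.24. Tk1, the thymidine kinase of dividing cells, read 7.48, 7.50 and 7.45 in KO replicates 1 to 3, against 7.75, 7.74 and 7.98 in WT replicates 1 to 3. Tk1 had the tightest KO values of the 48 members (SD 0.03), and its difference (-0.35, SE 0.14, limma adjusted p = 0.403) was the same without KO replicate 1.

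The 4 genes of S phase entry were lower, with a median of -0.18, but of -0.08 with 3 of 4 lower without KO replicate 1. E2f2 read 6.75, 6.96 and 6.83 in KO replicates 1 to 3, against 7.03, 6.98 and 7.04 in WT replicates 1 to 3 (-0.18, limma adjusted p = 0.676). KO replicate 2 lay just under WT replicate 2, so the groups were only narrowly apart. E2f1 (-0.08) overlapped, as did the cyclins Ccne1 (-0.18) and Ccne2 (-0.20), which drive the kinase Cdk2 at the start of S phase. When KO replicate 1 was dropped, Ccne1 was at 0.04 and Ccne2 at -0.06. Of the genes that restore chromatin behind the fork, Chaf1b, a subunit of the histone chaperone CAF-1, read 7.30, 7.41 and 7.59 in KO replicates 1 to 3, against 7.45, 7.58 and 7.91 in WT replicates 1 to 3 (-0.21), with overlap. Without KO replicate 1 Chaf1b was at -0.15. Uhrf1, which guides DNA methylation to new strands, differed by -0.13, and by -0.08 without KO replicate 1. The larger CAF-1 subunit Chaf1a was below the filter and not tested, with 5.46, 5.72 and 5.66 in KO replicates 1 to 3, against 5.54, 5.63 and 5.80 in WT replicates 1 to 3.

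Of all tested genes 59.7% were lower and 7.67% were lower at an unadjusted p of 0.05, against which the other genes of the pathway, listed apart from the 50, are read. For counts without KO replicate 1 the background is 7185 of 13891 tested genes lower. Of 25 further replication genes 18 (72%) were lower in KO, with a median of -0.12, and 3 (12%) were lower at an unadjusted p of 0.05. Without KO replicate 1 the median was -0.04 and 14 of 25 were lower. The 3 were Ticrr (-0.57), Tipin (-0.56) and Mtbp (-0.53). Tipin and Mtbp were at -0.32 and -0.30 without that array, and Ticrr had a KO mean of 5.87, under the filter floor. Among 28 genes of E2F, Rb and G1 control 20 (71.4%) were lower (median -0.14, and -0.09 with 17 lower without KO replicate 1), 6 (21.4%) of them at an unadjusted p of 0.05. Dtl, which targets Cdt1 for destruction, read 6.38, 6.56 and 6.66 in KO replicates 1 to 3, against 7.01, 7.52 and 7.52 in WT replicates 1 to 3 (-0.81, SE 0.17, limma adjusted p = 0.125). The G1 kinase Cdk6 read 9.01, 9.14 and 8.92 in KO replicates 1 to 3, against 9.67, 9.86 and 9.61 in WT replicates 1 to 3 (-0.69, SE 0.14, limma adjusted p = 0.112). Both had separate groups, and the others were the E2F partner Tfdp1 (-0.54, and -0.34 without KO replicate 1), Fbxo5 (-0.50, and -0.31 without it), E2f6 (-0.36) and E2f8 (-0.38). Of 13 further nucleotide genes 10 (76.9%) were lower (median -0.16, and -0.14 with 8 lower without KO replicate 1). Dctd alone was lower at an unadjusted p of 0.05 (-0.41, but 0.03 when probe sets were averaged). Of 17 replication stress genes 16 (94.1%) were lower (median -0.23) and 3 (17.6%) at an unadjusted p of 0.05, among them Slfn9 (-0.62) and Rad54l (-0.48, with a KO mean of 5.80 under the floor). Without KO replicate 1, 11 of the 17 were lower, with a median of -0.14. Of 12 chromatin genes 8 (66.7%) were lower (median -0.27, and -0.12 with 9 lower without KO replicate 1), with the methyltransferase Ezh2 (-0.61) and the remodeller Hells (-0.61) at an unadjusted p of 0.05. No gene of these 5 lists passed an adjusted p of 0.05 in limma. With all arrays none was higher in KO at an unadjusted p of 0.05. Rad9a (0.30), Ccnd3 (0.28) and Rnaseh2a (0.24) had every KO value above every WT value. Their lists held 4, 6 and 4 genes with every KO value below. Without KO replicate 1, Rad9a (0.36), Nasp (0.36), Pole4 (0.35) and Rb1 (0.29) were higher at that unadjusted p. Others, such as Dtl (-0.74), Cdk6 (-0.68) and Ticrr (-0.57), were lower at it.

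Mitosis genes, which also follow the cell cycle, were lower as well. Of 35 tested mitosis genes 33 were lower in KO, with a median of -0.37, against -0.20 for the replication genes. At an unadjusted p of 0.05, 14 (40%) were lower, against 25% of the replication genes and 7.67% of all tested genes. In 16 (45.7%) the groups were separate with KO lower, against 29.2% of the replication genes and 11.3% of all tested genes. Without KO replicate 1 the mitosis median was -0.22, with 30 of 35 lower. Where both group means reached the floor, 11 of 32 mitosis genes (34.4%) were lower at an unadjusted p of 0.05, where 7.47% of all genes treated alike were. Of these 32, 13 (40.6%) had separate groups with KO lower, where 11.1% of all genes treated alike did. Whether the mitosis and replication sets differ was not tested. Cdk1, the kinase that starts mitosis, read 5.77, 6.24 and 6.27 in KO replicates 1 to 3, against 6.95, 6.95 and 7.01 in WT replicates 1 to 3 (-0.88, SE 0.16, limma adjusted p = 0.0769). Top2a, the topoisomerase that untangles sister chromosomes, differed by -0.94 (SE 0.23, limma adjusted p = 0.183). The set's 14 also held Cdca8 (-0.64, with all KO values under the floor), Ccnb2 (-0.62), Nusap1 (-0.58) and Aurkb (-0.52). Only 8 of the 18 Cdca8 probe sets were lower in KO, and 6 of the 9 Cdk1 probe sets were. For Top2a 27 of 32 were lower, for Ccnb2 10 of 10, for Nusap1 12 of 13 and for Aurkb 11 of 12.

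Markers of other cells moved with the genotype in part. Summed intensities of 10 macrophage and monocyte markers were 571 to 721 in KO and 744 to 1124 in WT, with 6 of 6 tested members lower and Vcam1 past the threshold (-1.15, limma adjusted p = 0.0343). For 8 NK and CD8 T cell markers the sums were 992 to 1147 in KO and 1173 to 1249 in WT. Of the 6 tested 3 were lower and 3 higher. Ncr1 was at -0.85 (limma adjusted p = 0.212), whereas Klrb1c was at 0.28 with every KO value above every WT value (limma adjusted p = 0.552). Of 6 follicular helper T cell markers 5 were lower, 4 (66.7%) at an unadjusted p of 0.05 and 3 with separate groups. Among them were Sostdc1 (-1.19, limma adjusted p = 0.118) and Il21 (-0.79, limma adjusted p = 0.221). Bcl6 was higher in KO (0.23) and Cxcr5 differed by -0.07, both with overlap. The sums of the 6 markers overlapped narrowly, at 3097 to 4096 in KO and 3997 to 4631 in WT. The 8 germinal centre B cell and plasma cell markers summed to 1780 to 2356 in KO and 2102 to 2941 in WT, with overlap. Of the 5 tested 4 were lower, among them Prdm1 (-0.92) and Igj (-0.85) at an unadjusted p of 0.05. Sdc1 was at 0.06 with overlap. By mean intensity Xbp1 (1473 in KO, 1696 in WT) and Prdm1 (283 in KO, 553 in WT) were the brightest of the 8. Whether the Tregs themselves expressed Xbp1 and Prdm1 was not tested. Sums also overlapped for the 10 B cell markers (1279 to 1451 in KO, 1292 to 1713 in WT; 5 of 5 tested lower) and the 7 erythroid precursor markers (528 to 822 in KO, 675 to 813 in WT; 3 of 4 tested lower). The 8 T cell and Treg markers summed to 36033 to 38783 in KO and 39570 to 39870 in WT, with 7 of 8 lower. Without KO replicate 1 the lower counts were 6 of 8 for these and the same for the other marker lists. No marker was listed at 0, but defining ones such as Pax5, Adgre1 and Klf1 had mean values below the filter. The part of these cells in the differences of the replication genes was not tested.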

How the data were processed

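The authors deposited 1 intensity per array and exon-level probe set; per the submitters' processing notes they used PLIER through Affymetrix Expression Console 1.4. How background and arrays were normalized, and which annotation release was used, is not given in the sources used here. Titles gave groups and replicate numbers, and every array is its own mouse. In the platform annotation 233753 of 269751 probe sets carry a single symbol, 5106 carry several and 30892 carry none; genes were built from the single-symbol ones.

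The deposited intensities became log2(intensity + 16), which understates differences of dim probe sets, without renormalizing. A gene's value is the median over its probe sets, and 9261 of 23152 genes under the 40th percentile were left out. For KO against WT, moderated linear models (limma 3.58.1, R 4.3.3, two-sided) were fitted to all 13891 genes, or to all probe sets, with Benjamini-Hochberg adjustment and a threshold of 0.05. The fit was checked on simulated data. With 3 arrays in each group, precision is limited by their number. Alternatives covered the pseudocount, filter, summary, normalization, array weights, variance trend, replicate block and leaving out each array.

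The members, lists, tests and naming rule were chosen with earlier results of these data known. Every member is named. Arrays are given one by one for members at an unadjusted p of 0.05, without overlap, or with the smallest p of their role. Orc1, Orc4, Cdt1, Pcna, Rrm2 and Chaf1a were added after their values were seen, as were Pold3, Pold4, Pole3 and Pole4. Outside the members, genes at an unadjusted p of 0.05 were eligible. List symbols absent from the array were matched through unique RefSeq synonyms (Ticrr is 5730590G19Rik there).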

Additional observations from a re-analysis of the deposited data

How the results depend on the processing

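Of the 48 tested members 32 kept their sign under each alternative that gave them a value and with each array left out, 30 of them lower in KO. Dim members had no value under some alternatives, and of the 34 with all 11 alternatives that keep every array 22 kept their sign. No member passed an adjusted p of 0.05 in any of these fits. No member probe set passed either, a result not run for the 4 alternatives that change only gene values. With the mean of probe sets the differences were -0.086 for Orc3, 0.0016 for Orc5, -0.084 for Gins3, -0.080 for Gins4, -0.16 for Mcm10 and 0.031 for Dctd. With bright probe sets only they were -0.13 for Orc3, 0.064 for Rfc5 and 0.018 for E2f1. Rfc5 was at 0.027 with quantile normalization and 0.0080 with median centring. Over the 11 alternatives that keep every array Rfc5 lay between -0.21 and 0.064. Array weights gave 0.26 for Orc4, -0.027 for Gins4, -0.016 for Pold2, 0.035 for Rpa3 and 0.075 for Fen1. The cause of these reversals was not tested. With 1 array left out, the range was -0.31 to 0.0096 for Orc2, -0.062 to 0.22 for Orc3, -0.50 to 0.41 for Orc4, -0.069 to 0.16 for Gins3, -0.056 to 0.16 for Gins4, -0.25 to 0.0028 for Rfc1, -0.093 to 0.091 for Rfc5, -0.33 to 0.019 for Pola1, -0.036 to 0.17 for Pold2, -0.29 to 0.063 for Rpa3, -0.26 to 0.12 for Fen1, -0.13 to 0.024 for E2f1, -0.32 to 0.038 for Ccne1 and -0.29 to 0.025 for Uhrf1. The members' median lay between -0.32 and -0.13, the count lower at an unadjusted p of 0.05 between 6 and 14, and the count without overlap and KO lower between 15 and 27, since fewer arrays separate more easily. The 38 genes of the whole array past the threshold were 125 with array weights, 60 with the mean of probe sets, 67 with the replicate block, and 4 to 37 with 1 array left out. With the replicate number as a block 14 members were lower at an unadjusted p of 0.05 (9.39% of all genes) and 0 passed; deviations of same-numbered arrays correlated at 0.15, 0.17 and 0.010, so the numbers were not taken to pair the mice, and no member call changed. Only 34 members were tested with a filter at the 60th percentile, of which 9 were lower at an unadjusted p of 0.05 (8.56% of all genes). Genes with values near 5.90, such as Cdc6 and Gins1, are limited by signal near the filter floor.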
